A study of Homo sapiens and Mus musculus with 92 samples.

Results

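The globin genes are the 10 genes HBZ, HBM, HBA2, HBA1 and HBQ1 of the alpha globin cluster on chromosome 16, and HBE1, HBG2, HBG1, HBD and HBB of the beta globin cluster on chromosome 11. They were taken by gene symbol, and all 10 were present among the 28103 genes of the RNA-seq count tables. The cells were HEL cells, a human erythroleukemia line, and RNA was measured as strand-specific, polyA-selected libraries. In the MLL1 experiment, 3 libraries of control cells, transduced with a non-targeting shRNA, were compared with 3 libraries of MLL1 KD cells, transduced with shRNA #1 against KMT2A, the gene of the histone H3K4 methyltransferase MLL1. In the AF9 experiment, 2 libraries of control cells were compared with 2 libraries of AF9 KD cells, transduced with shRNA #1 against MLLT3, the gene of AF9, a chromatin reader that recruits elongation factors. The labels give the genotype of all groups as WT. All groups had been selected with puromycin as pools of transduced cells, not as clones, and each gene was targeted by a single shRNA sequence in these libraries. The labels number the libraries of a group without saying whether they came from separate cultures, so p values measure the spread between these libraries. These comparisons ask which genes depend on MLL1 or on AF9 in cells whose KMT2A gene is not rearranged.

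Hemoglobin is a tetramer of a pair of alpha-like and a pair of beta-like chains, each holding a heme. The genes of each cluster are arranged in the order in which they are used in development: HBZ and HBE1 in embryonic red cells, HBG2 and HBG1 with HBA2 and HBA1 in fetal red cells, and HBB and HBD, again with HBA2 and HBA1, after birth. Each cluster is driven by an upstream enhancer, the locus control region of the beta cluster and the MCS-R elements of the alpha cluster, which bind GATA1, TAL1, KLF1 and NFE2. HEL cells are known for embryonic and fetal globin expression with little adult beta globin.

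HBA2 and HBA1, and likewise HBG2 and HBG1, are near-identical copies, so the few bases that tell them apart decide how reads can be assigned. In the annotation GENCODE v44 of hg38, the canonical transcripts lay at chr16:172876-173710 for HBA2, chr16:176680-177522 for HBA1, chr11:5253188-5254781 for HBG2 and chr11:5248269-5249857 for HBG1, the beta-like genes on the minus strand. All 10 canonical transcripts had 3 exons. The coding sequences of HBA2 and HBA1, 429 bases each, were identical, and all 19 mismatches of their aligned transcripts lay outside them. The coding sequences of HBG2 and HBG1, 444 bases each, differed at 2 positions, position 227 in codon 76 and position 410 in codon 137, counted from the first base of the start codon. These 4 stretches of 25 bases show both positions in each copy, with the differing base in capitals, on the minus strand of hg38 chromosome 11:
HBG2, codon 76, chr11:5254368-5254392: tgggagatgccaTaaagcacctgga
HBG1, codon 76, chr11:5249444-5249468: tgggagatgccaCaaagcacctgga
HBG2, codon 137, chr11:5253299-5253323: agatggtgactgGagtggccagtgc
HBG1, codon 137, chr11:5248381-5248405: agatggtgactgCagtggccagtgc

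Of all 31-base stretches of the HBA1 transcript, 82.3% also occurred in HBA2, and of those of HBG1, 76.8% occurred in HBG2. At 100 bases the shares were 79.7% for HBA1 and 53.9% for HBG1. HBB and HBD shared 18.4% of the 31-base stretches of HBB and none at 100 bases, and 22.8% of the 31-base stretches of HBZ lay in an annotated HBM transcript. The split of counts between HBA2 and HBA1 and between HBG2 and HBG1 is therefore uncertain, and the sum of each pair is given beside the single genes.

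The shRNA targets are shown because a short match of an shRNA to a globin transcript could act on it directly. Capitals mark the 7 bases that pair with positions 2 to 8, the seed, of the guide strand.
MLL1 shRNA #1, KMT2A exon 3, hg38 chr11:118474149-118474169, plus strand: gcactgttaaacaTTCCACTt
AF9 shRNA #1, MLLT3 exon 5, hg38 chr9:20414247-20414267, minus strand: ttcaaagcctcacAAATTAAt
The seed match TTCCACT occurred 0 times, and AAATTAA also 0 times, in the 10 canonical globin transcripts.

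Library totals were 6966345 to 10380241 counts in the MLL1 experiment and 12278989 to 14232408 in the AF9 experiment, and 3 counts, the upper limit that a count of 0 allows, corresponded to 0.211 to 0.431 CPM, the counts scaled to a common library size. KMT2A was at 1323, 1300 and 1258 CPM in control and 813, 815 and 835 CPM in MLL1 KD cells, and MLLT3 at 548 and 528 CPM in control and 107 and 92.6 CPM in AF9 KD cells. MLLT3 was called lower (edgeR adjusted p = 3.24e-08), and KMT2A, whose groups did not overlap, had an edgeR adjusted p of 0.0723 without and 3.49e-07 with the replicate number as a block. Replicate 1 of both groups of the MLL1 experiment stood apart: the chi-square per degree of freedom between libraries of a group was 31.6 to 60.3 for pairs that held it and 2.4 and 2.69 for the pairs of replicates 2 and 3. Results of that experiment are therefore given also with the replicate number as a block and for replicates 2 and 3 alone. The numbers 2 and 3 were not shown to pair a control with a KD library, so ratios within them rest on the labels. HEL cells expressed the erythroid markers, whose 20 genes summed to 3019 to 3614 CPM in the MLL1 experiment and 5259 to 6185 CPM in the AF9 experiment, and none of these was at 0 in every library. AHSP, the chaperone of free alpha chains, and 4 other genes (NGB, MB, CYGB, ADGB) summed to at most 0.852 CPM in any library.

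The globin genes were expressed over a wide range, and the embryonic and fetal genes dominated the beta-like chains. Levels between genes are given as TPM, in which counts are also divided by transcript length. In the control cells of the MLL1 experiment, the order by mean TPM was HBG2 (1273), HBA1 (1188), HBA2 (537), HBE1 (364), HBG1 (254), HBQ1 (50.7), HBB (36.1), HBZ (16.1), HBD (13.2) and HBM (0). The libraries overlapped between HBG2 and HBA1, HBA2 and HBE1, HBE1 and HBG1, HBQ1 and HBB, and HBZ and HBD, so the order of these neighbours was not resolved. In the control cells of the AF9 experiment, the order was HBG2 (18512), HBG1 (11873), HBE1 (6648), HBA1 (363), HBA2 (205), HBB (183), HBD (30.1), HBQ1 (6.42), HBZ (2.86) and HBM (0), where neighbours overlapped only for HBA2 and HBB. The globin genes together took 0.0414 to 0.118% of counts in the MLL1 experiment and 0.653 to 0.975% in the AF9 experiment. The control cells of the 2 experiments thus stood at different globin levels, which were normalised separately and were not tested against each other. HBM, the mu globin gene, had 0 counts in 9 libraries and 1 count in AF9 KD replicate 2, and it did not pass the level needed for the test in either experiment.

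**Figure D1:**
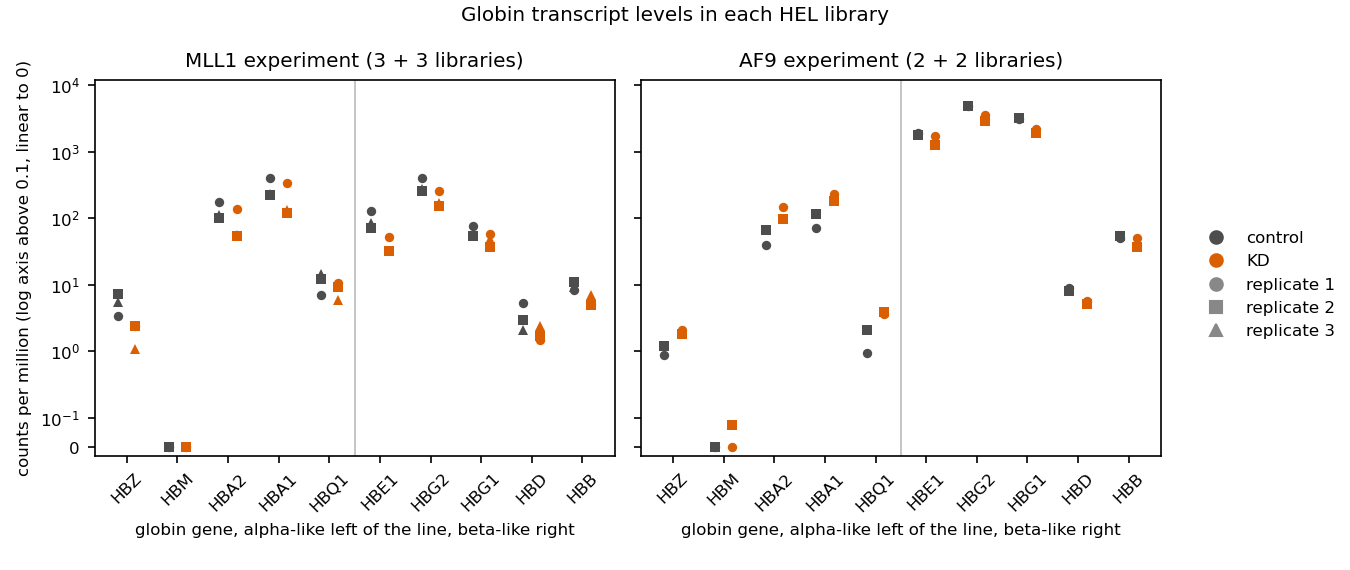
CPM (symmetric log axis, linear below 0.1) of the 10 globin genes in each library, control in grey and KD in orange, with a marker shape for each replicate number. In the MLL1 experiment replicate 1 (circles) was the highest library of its group for HBA1 and HBG2, and in the AF9 experiment KD libraries lay above control for HBZ, HBA2, HBA1 and HBQ1 and below it for the beta-like genes.

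MLL1 KD cells had less RNA of the embryonic beta-like gene HBE1 and the fetal gene HBG2, with every KD library below every control library. The differences were smaller or more variable for the other globin genes. The log2 fold change was negative for all 9 globin genes tested, with a median of -0.71 against 0.01 over all 14393 genes tested. With edgeR's quasi-likelihood test and no block, none of the 9 passed both the 1.5-fold limit and an adjusted p of 0.05, and 4 had an unadjusted p under 0.05. That test called 0.0347% of all genes lower and 0.0278% higher. DESeq2 called 1 globin gene, HBE1, beside 0.827% of all genes called lower and 0.785% higher. With the replicate number as a block, 6 of 9 were called lower (HBE1, HBG2, HBA2, HBA1, HBZ and HBB) and none higher, where 2.50% of all genes were called lower and 2.22% higher. DESeq2 with the block called 4 of these lower, HBE1, HBG2, HBA2 and HBA1, beside 1.79% of all genes lower and 1.48% higher. In replicates 2 and 3 alone, 7 of 9 were called lower, HBQ1 in addition, beside 2.33% of all genes lower and 2.51% higher. In 4 genes (HBE1, HBG2, HBB and HBZ) all KD libraries lay below all control libraries, which held for 9.08% of all genes, while 8.64% lay above. In bulk RNA, fewer cells that express a gene and less RNA per cell cannot be told apart.

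HBE1, the embryonic epsilon chain, was at 128, 71.5 and 85.1 CPM in control replicates 1, 2 and 3 and at 52.1, 32.4 and 31.7 CPM in the MLL1 KD replicates. All KD libraries lay below all control libraries, and within each replicate number KD was at 40.7%, 45.3% and 37.3% of control. The log2 fold change was -1.29 with an SE of 0.28 and an edgeR adjusted p of 0.169 without the block, and an SE of 0.10 and an adjusted p of 1.85e-07 with it.

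HBG2, the more abundant gamma gene of fetal hemoglobin, was at 401, 256 and 278 CPM in control and 254, 151 and 166 CPM in MLL1 KD cells. The highest KD library, replicate 1, lay just below the lowest control library, replicate 2, and within replicate numbers KD was at 63.4%, 59.1% and 59.6% of control. Its log2 fold change was -0.71 ± 0.25 (SE, edgeR adjusted p = 0.372), and with the block -0.72 ± 0.07 (adjusted p = 2.36e-06). HBG1, the other gamma gene, was at 75.7, 54.2 and 56.8 CPM in control and 58.2, 36.1 and 48.8 CPM in MLL1 KD cells. These groups overlapped, and HBG1 was not called with the block because its fold was under 1.5 (log2 fold change -0.39 ± 0.11, edgeR adjusted p = 0.02). Summed, HBG1 and HBG2 had a log2 fold change of -0.66 ± 0.07 with the block (edgeR adjusted p = 3.75e-06), at 63.4% of control.

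The adult beta-like genes were low in these cells. HBB, the beta chain of adult hemoglobin, was at 8.28, 10.8 and 9.31 CPM in control and 5.16, 4.97 and 7.03 CPM in MLL1 KD cells, from 35 to 78 counts per library. The groups did not overlap, and the log2 fold change was -0.72 ± 0.24 (edgeR adjusted p = 0.351) without and -0.72 ± 0.23 (adjusted p = 0.0448) with the block. HBD, the delta chain of the minor adult hemoglobin, had 12 to 41 counts per library. It was at 5.3, 2.91 and 2.04 CPM in control and 1.49, 1.7 and 2.38 CPM in MLL1 KD cells, with KD above control in replicate 3, and its log2 fold change of -0.87 ± 0.45 did not pass the test in either fit (edgeR adjusted p = 0.232 with the block).

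Among the alpha-like genes, HBA1 and HBA2, whose coding sequences are identical, were highest in replicate 1 of each group. HBA1 was at 407, 224 and 228 CPM in control and 342, 118 and 132 CPM in MLL1 KD cells. HBA2 was at 176, 98.9 and 113 CPM in control and 137, 53.8 and 54.8 CPM in KD cells. For both genes KD replicate 1 lay above 2 of the 3 control libraries, and the groups overlapped. Within replicate numbers HBA1 was at 84.1%, 52.8% and 57.9% of control and HBA2 at 77.8%, 54.4% and 48.6%, lower in 3 of 3. The sum of the pair had a log2 fold change of -0.57 ± 0.42 (edgeR adjusted p = 0.74) without the block and -0.68 ± 0.09 (adjusted p = 9.42e-05) with it. Without a block, leaving out KD replicate 1 gave -1.19 for HBA1 and -1.25 for HBA2, and leaving out control replicate 1 gave -0.19 and -0.37, none of them called. Without replicate 1 of both groups the log2 fold changes were -0.85 for HBA1 and -0.97 for HBA2.

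HBZ, the embryonic zeta chain, was at 3.36, 7.21 and 5.48 CPM in control and 2.38, 2.41 and 1.08 CPM in MLL1 KD cells, from 10 to 52 counts. The groups did not overlap, although control replicate 1 was the lowest control library here and the highest for HBA1. The log2 fold change of HBZ was -1.45 ± 0.43 (edgeR adjusted p = 0.299), and -1.42 ± 0.37 (adjusted p = 0.0155) with the block. HBQ1, the theta gene, whose protein has no settled role in hemoglobin, was at 6.98, 12.2 and 14.3 CPM in control and 10.4, 9.09 and 5.95 CPM in MLL1 KD cells. It was higher in KD in replicate 1 and lower in replicates 2 and 3, and it was not called with or without the block (edgeR adjusted p = 0.403 and 0.781).

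**Figure D2:**
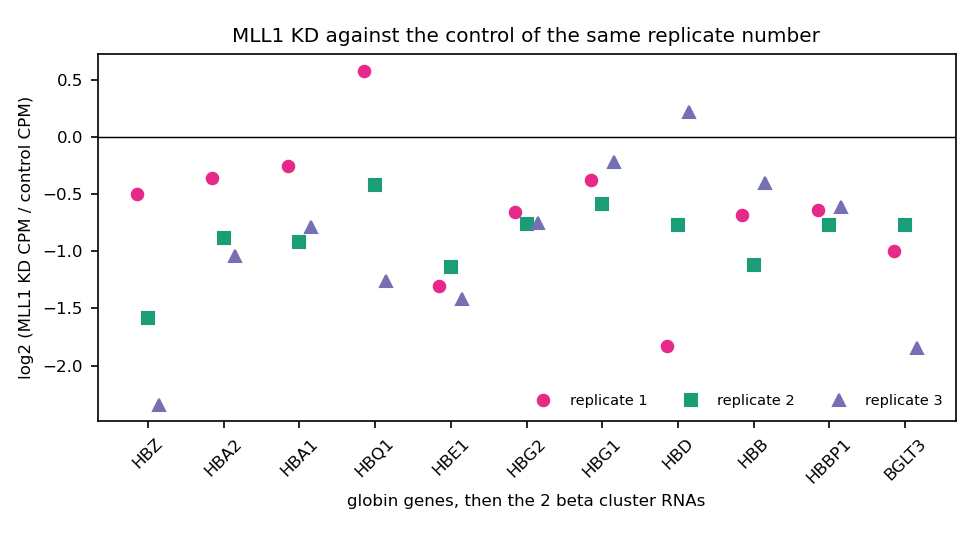
Log2 ratio of CPM in MLL1 KD over the control library of the same replicate number, for the 9 globin genes with counts and for the beta cluster RNAs HBBP1 and BGLT3, with a marker shape and colour for each replicate number. HBE1 and HBG2 gave closely similar ratios in all 3 replicates, HBA1, HBA2 and HBZ were nearest 0 in replicate 1, and only HBQ1 in replicate 1 and HBD in replicate 3 were above 0.

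The other RNAs of the beta cluster, which encode no chain, were also called lower with the block. HBBP1, a beta-like pseudogene between HBG1 and HBD, was at 41.2 ± 9.8 CPM (SD, n = 3) in control and 25.9 ± 6.61 in MLL1 KD cells (log2 fold change -0.67, edgeR adjusted p = 0.395 without and 0.00124 with the block). BGLT3, a noncoding RNA next to the gamma genes, was at 10.5 ± 2.37 and 4.58 ± 1.34 CPM (log2 fold change -1.20, adjusted p = 0.223 without and 0.0032 with the block). HBZP1 and HBAP1 were not analysed here.

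HBE1 made up a smaller part of the beta-like RNA, and the gamma genes a larger part, in MLL1 KD than in control cells. HBE1 held 18.6 ± 1.25% (SD, n = 3) of the summed beta-like TPM in control and 12.9 ± 0.988% in MLL1 KD cells, with ranges of 17.3 to 19.7% and 11.8 to 13.6%. HBG1 and HBG2 together held 78.8 ± 0.643% in control and 84.4 ± 0.741% in KD cells, also without overlap. The share of HBG1 within the gamma pair was 16.7 ± 0.819% in control and 20.2 ± 2.2% in KD cells, a split that rests on the 4 mismatches and 1 gap column of the aligned transcripts, of which the 2 coding mismatches are shown above. With the longer merged exons as lengths this share was 10.4 ± 0.545% and 12.7 ± 1.52%. HBA1 held 65.8 ± 2.68% and 67.3 ± 2.63% of the alpha-like TPM, within the spread. The ratio of summed alpha-like to beta-like TPM was 0.913 ± 0.068 in control and 0.992 ± 0.322 in KD cells, where KD replicate 1 was the highest library at 1.36. With 3 against 3 libraries an exact 2-sided permutation test cannot give a p below 0.1, so these shares carry no test.

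**Figure D3:**
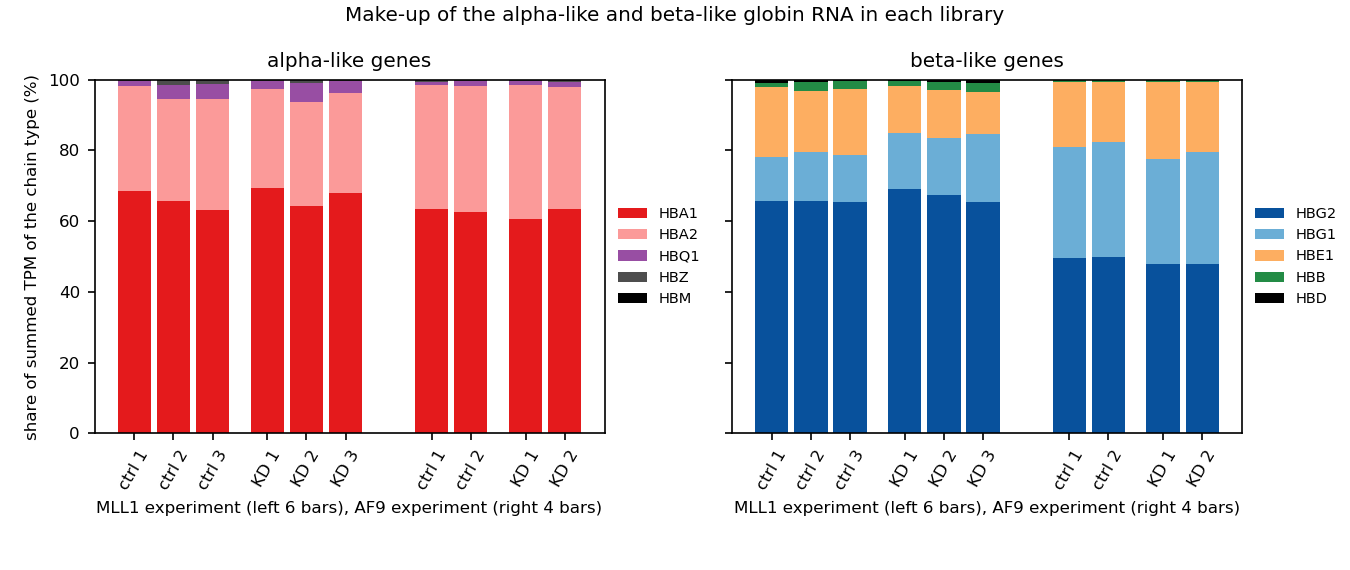
Share of each gene in the summed TPM of the alpha-like genes (left) and the beta-like genes (right), as stacked bars of 100% for each library. HBE1 held 17.3 to 19.7% of beta-like TPM in control and 11.8 to 13.6% in MLL1 KD cells, HBG1 took a larger part of the bars in the AF9 experiment than in the MLL1 experiment, and HBB was a thin band in all libraries.

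After AF9 KD the alpha globin genes HBA1 and HBA2 were upregulated and the fetal genes HBG1 and HBG2 downregulated, while HBZ, HBE1 and HBB did not pass the test. With offsets for the GC content of merged exons the calls of HBA1 and HBA2 were lost (edgeR adjusted p = 0.0708 and 0.0832). The call of HBG1 was also lost, just under the fold limit. DESeq2 with the replicate block called HBG1 and HBG2 lower but not HBA1 or HBA2. Of the 9 globin genes tested, edgeR without a block called 3 higher (HBA1, HBA2 and HBQ1) and 3 lower (HBG1, HBG2 and HBD), where 8.02% of all 13331 genes were called higher and 5.06% lower. All 4 tested alpha-like genes were higher in both KD libraries than in both control libraries, and all 5 beta-like genes were lower. For HBB this was a bare margin, 49.7 CPM in KD replicate 1 against 49.8 CPM in control replicate 1. With 2 against 2 libraries, 32.8% of all genes were higher and 33.2% lower without overlap, so the absence of overlap sets no gene apart here. The median log2 fold change was 1.19 over the alpha-like and -0.60 over the beta-like genes, against 0.01 over all genes. DESeq2 called 4 of the 6, HBA1 and HBA2 higher and HBG1 and HBG2 lower, beside 6.01% of all genes higher and 4.21% lower. With library totals and no TMM factors the 3 higher genes were called and none lower, beside 10.6% of all genes higher and 3.30% lower.

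The fold changes in AF9 KD cells rose with the GC content of a gene's exons, and the alpha-like globin genes lie at the GC-rich end. The alpha-like genes had 61.5 to 68.6% GC in their merged exons and the beta-like genes 45 to 50.7%. HBG1 and HBG2 had 46.8% and 49.2% GC in merged exons, but 51.3% and 51.2% in their canonical transcripts. The offsets used merged exons, so these near-identical copies received different offsets. Offsets from the GC content of transcripts were not run. The median log2 fold change of all tested genes with a GC content was -0.16 below 45% GC (5202 genes) and 0.54 from 60% GC upward (1535 genes). At the GC content of HBA1 the trend over all genes stood at 0.84, beside the 1.15 of HBA1 itself, and at that of the beta-like genes between -0.09 and 0.03. With each library's GC trend taken out as an offset, none of the alpha-like genes was called (2 of 4 had an unadjusted p under 0.05) and HBG2 and HBD were called lower, where 3.75% of genes were called higher and 4.23% lower. The higher level of the alpha-like genes and the GC trend moved together in these libraries. In the MLL1 experiment no such trend was seen, with medians of 0.03 below 45% GC and 0.01 from 60% GC upward.

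**Figure D4:**
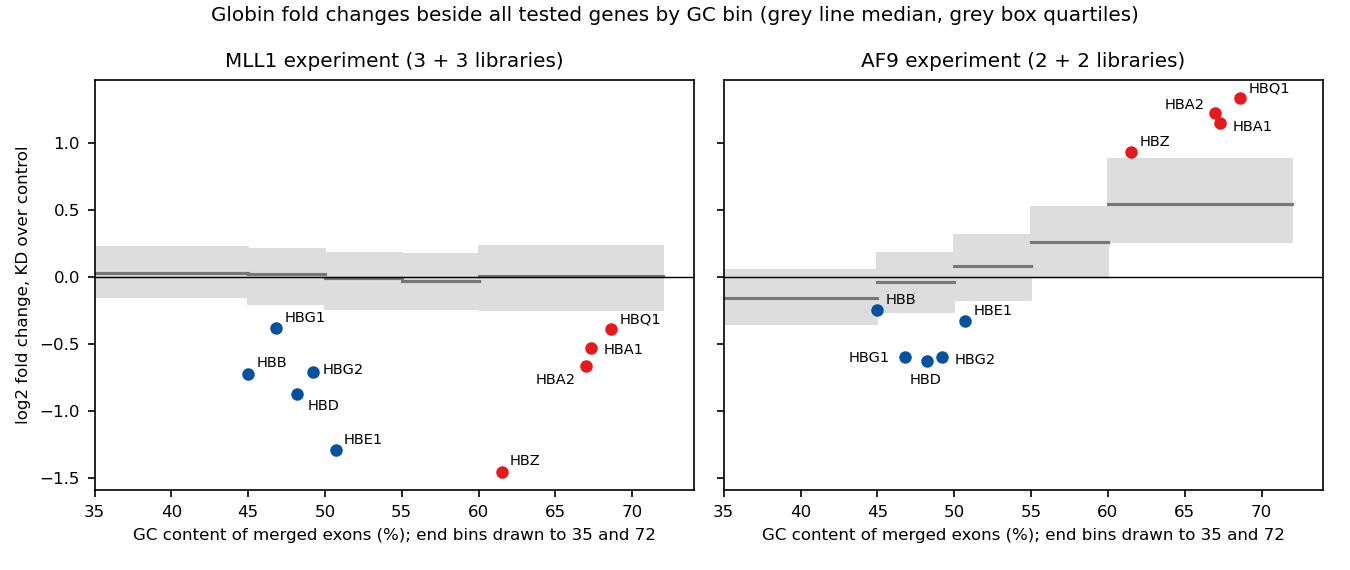
Log2 fold change of the 9 tested globin genes against the GC content of their merged exons in percent (red alpha-like, blue beta-like), over the median (grey line) and quartiles (grey box) of all tested genes in GC bins, for both experiments. In AF9 KD cells the bin medians rose from -0.16 to 0.54 and the alpha-like genes lay above the quartile box of their bin, while in MLL1 KD cells the bin medians were between -0.03 and 0.03.

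HBA1 was at 72.1 and 116 CPM in control replicates 1 and 2 and at 234 and 182 CPM in AF9 KD replicates 1 and 2. HBA2 was at 40 and 65.8 CPM in control and 147 and 98.3 CPM in AF9 KD cells. The control libraries differed from each other by more than the KD libraries did in proportion for HBA1, and every KD library was above every control library for both genes. The log2 fold change was 1.15 ± 0.17 (SE, edgeR adjusted p = 4.31e-04) for HBA1 and 1.22 ± 0.20 (adjusted p = 7.28e-04) for HBA2, and 1.17 ± 0.18 (adjusted p = 5.06e-04) for their sum, which was at 225% of control. With GC offsets these were 0.43 ± 0.16 (adjusted p = 0.0708), 0.52 ± 0.21 (adjusted p = 0.0832) and 0.47 ± 0.18 (adjusted p = 0.0686). Whichever of the 4 libraries was left out, the log2 fold change of HBA1 stayed between 0.84 and 1.53. DESeq2 with the replicate block called neither HBA1 nor HBA2.

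The other alpha-like genes were scarce. HBQ1 was at 0.945 and 2.1 CPM in control and 3.64 and 3.89 CPM in AF9 KD cells, from 13 to 52 counts. It had a log2 fold change of 1.33 ± 0.36 (edgeR adjusted p = 0.0133), and 0.51 ± 0.32 (adjusted p = 0.266) with GC offsets. Without control replicate 1 its log2 fold change was 0.84 and it was not called, and without control replicate 2 it was 1.98. HBZ was at 0.872 and 1.18 CPM in control and 2.09 and 1.8 CPM in AF9 KD cells, from 12 to 27 counts, and did not pass the test (log2 fold change 0.93 ± 0.39, edgeR adjusted p = 0.0858).

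Of the beta-like genes, HBG2 was at 4835 and 4869 CPM in control and 3544 and 2845 CPM in AF9 KD cells. HBG1 was at 3073 and 3161 CPM in control and 2220 and 1880 CPM in AF9 KD cells. The control libraries lay within a narrow band for both gamma genes, and KD replicate 2 was the lowest library. Both log2 fold changes were -0.60, with an SE of 0.12 and an edgeR adjusted p of 0.00296 for HBG2 and an SE of 0.11 and an adjusted p of 0.00178 for HBG1. These folds of 65.8% of control stood just past the 1.5-fold limit. With GC offsets the log2 fold change was -0.59 (adjusted p = 0.00306) for HBG2 and -0.54 (adjusted p = 0.00226) for HBG1, which put HBG1 just inside the limit. The sum of the pair was at -0.60 ± 0.12 (edgeR adjusted p = 0.00297) and was called lower. With GC offsets the sum was at -0.56 ± 0.11 (adjusted p = 0.0034), 67.6% of control, and was not called. Without KD replicate 2 the log2 fold changes were -0.45 for HBG2 and -0.48 for HBG1, both under the 1.5-fold limit. Without control replicate 1 or 2 HBG1 was called and HBG2 was not (edgeR adjusted p = 0.0823 and 0.0615).

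HBE1 was at 1926 and 1777 CPM in control and 1704 and 1236 CPM in AF9 KD cells, and its log2 fold change of -0.33 ± 0.14 (edgeR adjusted p = 0.081) did not pass the test. HBB was at 49.8 and 53.1 CPM in control and 49.7 and 36.8 CPM in AF9 KD cells, so the first KD library was level with control (log2 fold change -0.25 ± 0.14, edgeR adjusted p = 0.183). HBD was at 8.79 and 7.89 CPM in control and 5.73 and 5.09 CPM in AF9 KD cells. It was called lower with a log2 fold change of -0.63 ± 0.20 (edgeR adjusted p = 0.0342), and stayed called with GC offsets (-0.59, adjusted p = 0.033), but not without control replicate 1 (-0.55, adjusted p = 0.286), control replicate 2 (-0.70, adjusted p = 0.0878) or KD replicate 2 (-0.54, adjusted p = 0.0874). HBBP1 was at 247 ± 10.1 CPM (SD, n = 2) in control and 166 ± 38.7 in AF9 KD cells, a log2 fold change of -0.57 with an edgeR adjusted p of 0.00511 that stopped short of 1.5-fold. BGLT3 was at 5.45 ± 0.104 and 6.13 ± 0.34 CPM, and its log2 fold change of 0.17 did not pass the test (edgeR adjusted p = 0.592).

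**Figure D5:**
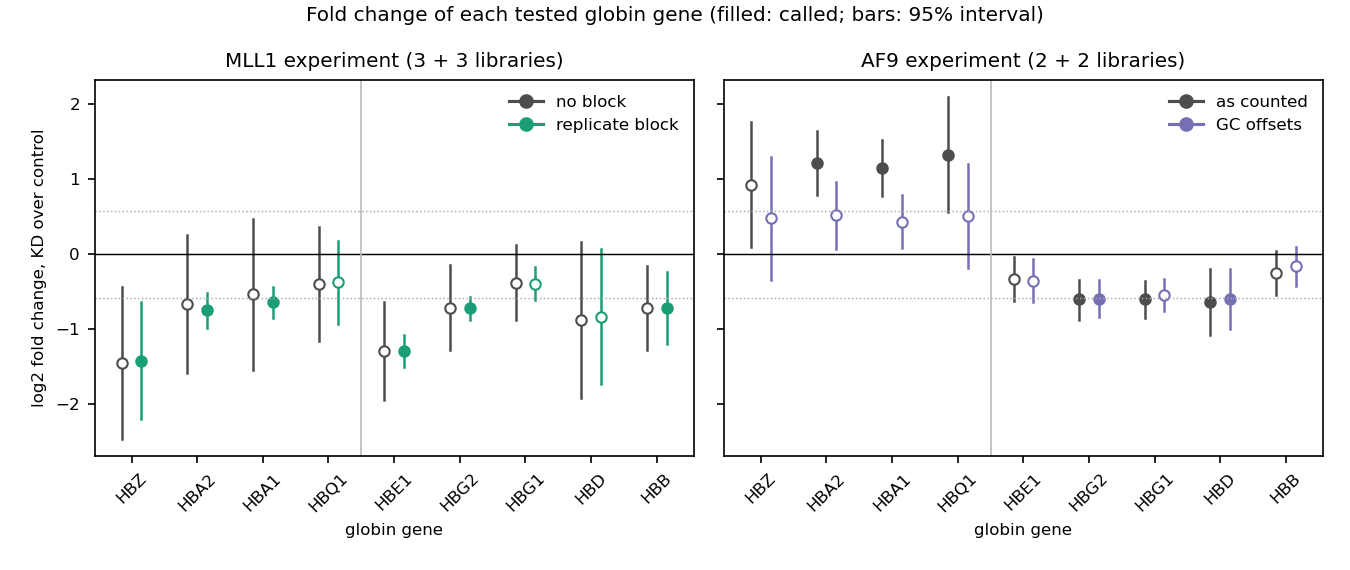
Log2 fold change of KD over control with 95% intervals for the 9 tested globin genes, in the MLL1 experiment without (grey) and with (green) the replicate block, and in the AF9 experiment as counted (grey) and with GC offsets (purple), where filled points were called and dotted lines mark a 1.5-fold change. The block narrowed the intervals of HBE1, HBG2, HBA1 and HBA2 around similar values, and the GC offsets moved the alpha-like genes from 0.93 to 1.33 down to 0.43 to 0.52 and left the beta-like genes within 0.09 of their values.

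The make-up of the beta-like RNA in the AF9 experiment was 49.7 ± 0.305% HBG2, 31.9 ± 0.671% HBG1 and 17.8 ± 0.992% HBE1 (SD, n = 2) in control cells. The shares in AF9 KD cells were 47.9 ± 0.164%, 30.8 ± 1.28% and 20.6 ± 1.41%. The share of HBE1 did not overlap between the groups, 17.1 to 18.5% and 19.6 to 21.6%, and it was higher in KD here while in the MLL1 experiment it was lower. HBG1 was 39.1% of the gamma pair in both groups of the AF9 experiment, or 26.9% in control and 27% in KD cells with merged exons as lengths. The ratio of summed alpha-like to beta-like TPM was 0.0155 ± 0.00523 in control and 0.051 ± 0.00281 in AF9 KD cells. No GC offset was applied to this ratio, and the alpha-like genes lie at the GC-rich end of the trend in this experiment. Beta-like RNA thus exceeded alpha-like RNA in every library of the AF9 experiment. With 2 against 2 libraries the smallest p of an exact permutation test is 0.333, and these shares carry no test.

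The effects of both knockdowns were compared in 1 fit over the 10 libraries, as the AF9 KD effect minus the MLL1 KD effect, each against its own controls. The knockdowns differed in depth, with KMT2A at 63.5% of control in MLL1 KD and MLLT3 at 18.6% in AF9 KD cells. The other target was at 82.2% of control in MLL1 KD (MLLT3) and at 80.2% in AF9 KD cells (KMT2A). Without a block, edgeR called none of the 9 globin genes at an adjusted p under 0.05, 5 had an unadjusted p under 0.05, while 0.573% of all 12729 genes were called with a higher and 0.778% with a lower AF9 effect. DESeq2 called 2, HBA2 and HBZ, beside 3.01% and 3.61% of all genes. The differences were 2.36 ± 0.63 for HBZ (edgeR adjusted p = 0.106), 1.85 ± 0.61 for HBA2 (adjusted p = 0.156), 1.66 ± 0.64 for HBA1 (adjusted p = 0.216) and 0.94 ± 0.39 for HBE1 (adjusted p = 0.25) on the log2 scale. With the replicate number as a block, 5 genes were called, HBZ, HBA2, HBA1, HBQ1 and HBE1, all with the AF9 effect above the MLL1 effect, where 12.0% and 12.4% of all genes were called in the 2 directions. With the block and GC offsets together, 4 were called (all but HBQ1), beside 6.29% and 8.31% of all genes, and the difference was 1.08 ± 0.21 for HBA1 (edgeR adjusted p = 0.00349) and 0.89 ± 0.13 for HBE1 (adjusted p = 3.57e-04). For the gamma genes the difference was 0.09 for HBG2, with a 95% interval of -0.67 to 0.85, and -0.24 for HBG1, with an interval of -0.87 to 0.38.

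Of the 38 factors that act at the globin loci or in globin switching, 36 were tested in each experiment. In MLL1 KD cells edgeR called none without the block, 8 had an unadjusted p under 0.05, and DESeq2 called 1, MYB. With the block edgeR called 3, all higher, where 2.22% of all genes were called higher: BCL11A and MYB, known repressors of gamma globin, and NR2F2 (COUP-TFII), a nuclear receptor that binds the gamma promoters. BCL11A was at 11.8 CPM in control and 23.8 in MLL1 KD cells (log2 fold change 1.06, edgeR adjusted p = 6.38e-04 with the block), NR2F2 at 126 and 237 CPM (0.88, adjusted p = 3.16e-06) and MYB at 449 and 676 CPM (0.59, adjusted p = 5.73e-06). With GC offsets added to the block MYB was not called. In replicates 2 and 3 alone the same 3 were called higher and PRMT5, another factor of the list, was called lower. After AF9 KD 3 were called higher and 1 lower, 11.1% of those tested, where 13.1% of all genes were called. These were ZFPM1, the GATA1 cofactor FOG1 (log2 fold change 2.23, edgeR adjusted p = 1.88e-04), MAFK, the small partner of NFE2 (0.96, adjusted p = 0.00741), EHMT2, a histone H3K9 methyltransferase (0.66, adjusted p = 0.00793), and LIN28B, an RNA-binding protein of fetal-type hematopoiesis (-0.61, adjusted p = 0.0017). With GC offsets ZFPM1 was still called higher (1.43, adjusted p = 0.00246) and MAFK, EHMT2 and LIN28B were not, while ATF4, a stress-response transcription factor, was called lower (-0.73, adjusted p = 6.29e-05). The median log2 fold change of the list was 0.06 in MLL1 KD and -0.02 in AF9 KD cells, against 0.01 over all genes in each.

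Few genes of heme synthesis, which supplies the group that globin chains hold, passed the test. Of 17 tested in MLL1 KD cells, edgeR called none without the block (3 had an unadjusted p under 0.05), and DESeq2 without and edgeR with the block called the same single gene: ALAS2, the erythroid enzyme of the first step, at 35.1 CPM in control and 10.4 CPM in KD cells (log2 fold change -1.78, edgeR adjusted p = 2.54e-06 with the block). After AF9 KD edgeR called none of the 17, 10 had an unadjusted p under 0.05, and DESeq2 called 1, ALAS2, here higher at 166 CPM in control and 248 CPM in KD cells (edgeR log2 fold change 0.58, adjusted p = 6.05e-04, just under the fold limit). With GC offsets ALAS2 was not called and ALAS1, the housekeeping enzyme of the first step, was called lower (-0.63, adjusted p = 3.31e-04). The values of the most abundant members were 0.41 for UROD (edgeR adjusted p = 0.025) and -0.49 for CPOX (adjusted p = 0.00386), under the fold limit.

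The genes around the alpha globin cluster were examined because they share its surroundings. In MLL1 KD cells 9 of 13 were tested. Without the block edgeR called none (3 had an unadjusted p under 0.05) and DESeq2 called none. With the block edgeR called 1, FAM234A (log2 fold change -0.67, edgeR adjusted p = 6.97e-04). It was not called in replicates 2 and 3 alone. After AF9 KD 10 were tested and 4 were called higher, where 8.02% of all genes were called higher: TMEM8A (0.78, edgeR adjusted p = 0.00231), MRPL28 (0.70, adjusted p = 0.00152), FAM234A (0.67, adjusted p = 0.00257) and MPG (0.66, adjusted p = 0.0185). With GC offsets none of these 4 was called, and RHBDF1 was called lower (-1.33, adjusted p = 0.0169).

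Markers of other blood lineages moved beside the globin genes. In MLL1 KD cells, 2 of 9 tested mast cell, basophil and eosinophil markers were called lower without the block (0.0347% of all genes were), PRG2 (log2 fold change -1.99, edgeR adjusted p = 0.0342) and TPSAB1 (-1.51, adjusted p = 0.0405). The 11 genes of that list summed to 2639 to 3000 CPM in control and 1992 to 2631 CPM in KD cells, with CLC at 0 in every library. Of the erythroid and megakaryocyte markers edgeR called none without the block (4 and 3 had an unadjusted p under 0.05), and DESeq2 called HEMGN, SPTB, CA2 and THBS1. With the block, the erythroid markers HEMGN, SPTB and CA2 were called lower, 3 of 19 tested, the megakaryocyte markers THBS1 and PF4 higher and TUBB1 lower. Of all genes, 2.50% were called lower and 2.22% higher with the block. In AF9 KD cells, 4 of 9 mast cell, basophil and eosinophil markers were called lower, CPA3 (242 CPM in control and 60.4 in KD, adjusted p = 3.26e-07), PRG2 (-1.59, adjusted p = 1.49e-04), MS4A2 (-1.02, adjusted p = 0.0113) and KIT (-0.96, adjusted p = 0.00249), and the list summed to 3577 to 3723 CPM in control and 2025 to 2634 CPM in KD cells. In that fit 5.06% of all genes were called lower and 8.02% higher. Of 19 erythroid markers in AF9 KD cells, HEMGN was lower (-0.91, adjusted p = 1.94e-04) and BLVRB, SPTB and KEL were higher. With GC offsets HEMGN was still called lower, none of these 3 was called, and TFRC was called higher (0.71, adjusted p = 0.0022). Of the megakaryocyte markers THBS1 was higher (0.64, adjusted p = 0.00596). Neutrophil and monocyte markers summed to at most 96.3 CPM in any library, with ELANE and PRTN3 at 0. In the AF9 experiment they summed to 91.5 to 96.3 CPM in control and 68.1 to 77.9 CPM in KD cells. Of the 2 tested there, edgeR called ITGAM higher in KD cells (1.40, adjusted p = 0.0114), and DESeq2 called none. No T and B cell marker was called in either experiment by edgeR without a block or by DESeq2 (0 and 1 of 3 tested had an unadjusted p under 0.05), and the most abundant, CD4, stood at 101 CPM in the control and 111 CPM in the KD cells of the MLL1 experiment and at 147 and 188 CPM in those of the AF9 experiment. The part of these cell states in the globin differences was not tested.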

How the data were processed

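RNA-seq of HEL cells was used: 3 control and 3 MLL1 KD libraries, and 2 control and 2 AF9 KD libraries with their own controls, of 92 samples in the series. Per the labels and the study's methods, the authors trimmed reads with fastp 0.13.1, aligned them to hg38 with HISAT2 2.1.0 and deposited raw counts per gene from featureCounts 1.6.1 in strand-specific mode. The annotation, and how reads that fit 2 copies were counted, are not given in the sources used here. Control columns were assigned to an experiment by the KD libraries in their table.

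Of 28103 symbols, 92.4% were matched to GENCODE v44, which gave lengths and GC content. Genes whose TPM averaged 1 or more were tested with edgeR 4.0.16 (R 4.3.3, TMM, glmQLFTest), Benjamini-Hochberg adjusted over all genes tested. A call needed a 1.5-fold or larger change with an adjusted p under 0.05. DESeq2 1.42.0 was an alternative. CPM values use TMM-scaled library sizes, and log2 CPM used a prior count of 2. GC offsets were lowess trends with a span of 0.3. On counts simulated without any difference between replicate numbers, 98% to 100% of genes changed by 1 or 2 on the log2 scale were recovered in each experiment. The changed genes were drawn above a level that HBZ, HBD in the MLL1 experiment and HBQ1 in the AF9 experiment did not reach. In both experiments the simulated spread was that left after the replicate number was taken out. Recovery in fits without a block may therefore be lower. The MLL1 libraries do hold such a difference, so these shares do not apply to its fit without a block. Figures were drawn with matplotlib.

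In the MLL1 experiment the numbers set replicate 1 apart from replicates 2 and 3. Deviations of same-numbered libraries from their group means correlated at 0.65, 0.33 and 0.35. Replicates 2 and 3 correlated as highly across numbers (0.36 and 0.37), so the numbers 2 and 3 are not shown to pair libraries. The block there left 2 residual degrees of freedom, and its p values rest mainly on the spread shared over genes (16.3 prior degrees of freedom). Genes named were the globin genes, the targeted genes and, from each list and comparison, at most 4 called genes with the largest change, or the 2 most abundant where none was called. The members and lists were chosen with earlier results of these data known. The 95% intervals come from the fits and include the spread between libraries, and the floor of 3 counts covers counting error only.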

Additional observations from a re-analysis of the deposited data

Results flagged for a closer look

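The effects of the 2 knockdowns on 5 globin genes differed by the test of the difference itself in the fit with the replicate number as a block (edgeR, adjusted over all 12729 genes tested in both experiments), and in none without it. The AF9 KD effect lay above the MLL1 KD effect by 2.33 on the log2 scale for HBZ (adjusted p = 0.0092), 1.94 for HBA2 (adjusted p = 9.84e-05), 1.79 for HBA1 (adjusted p = 6.02e-05), 1.70 for HBQ1 (adjusted p = 0.0242) and 0.92 for HBE1 (adjusted p = 6.84e-05). For HBZ, HBA2, HBA1 and HBQ1 the mean effects had opposite signs in the 2 experiments, and for HBE1 both were negative. In the same fit 12.0% of all genes were called with a higher and 12.4% with a lower AF9 effect. The replicate numbers are not shown to pair libraries in the AF9 experiment, nor replicates 2 and 3 of the MLL1 experiment. The GC trend of the AF9 experiment moved with the alpha-like genes, and with GC offsets added to the block HBQ1 was no longer called (0.94, edgeR adjusted p = 0.238).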

How the results depend on the processing

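Globin genes called in MLL1 KD cells numbered 0 in the main edgeR fit, whichever single library was left out (0 to 0), and under GC offsets alone. They numbered 6 with the replicate block, 6 with the block and GC offsets, 7 with copies summed and the block, 7 with copies summed, block and GC offsets (in each HBB, HBE1, HBZ and both summed pairs, where a pair counts as 2 genes), 7 in replicates 2 and 3 alone, 4 with DESeq2 and the block, and 1 with DESeq2 whether fitted on the tested genes or on every detected gene; all were lower. In AF9 KD cells the 6 calls became 3 with a fold change of at least 2, 4 with a mean TPM of 5 or more (HBG1 and HBG2, both at -0.58, lost their calls), 3 with library totals and no TMM (which moved the median of all genes from 0.01 to 0.10), 2 with GC offsets, 2 with the block and GC offsets, 1 with copies summed and GC offsets, and 2 with DESeq2 and the block, and 3 to 6 when a library was left out. Calls on the difference of the effects, 0 in the main fit, became 5 with the block, 4 with the block and GC offsets, 2 with DESeq2 on the tested genes and 1 with DESeq2 on every detected gene, and 0 to 4 when a library was left out, where leaving out MLL1 KD replicate 1 gave the 4 (HBA1, HBA2, HBE1 and HBZ). The causes were not tested.

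Signs turned only for uncalled differences of the effects: HBD, at 0.23, ranged from -0.22 (without MLL1 experiment control replicate 1) to 0.50 over the libraries left out, and HBG2, at 0.09, from -0.12 (without that library) to 0.35, with -0.06 and -0.00 without MLL1 KD replicates 2 and 3, and -0.08 without AF9 KD replicate 1. No fold change within an experiment changed sign under any alternative run. The replicate block in the AF9 experiment called 6, as the fit without it. Same-numbered libraries there correlated at 0.16, which is 1 value because the 2 libraries of a group deviate as mirror images. The numbers are thus not shown to pair the libraries. The 1 residual degree of freedom of this block leaves p values that rest on the shared spread. The runs with DESeq2 and a block, copies summed with a block or GC offsets, replicates 2 and 3 alone, canonical transcript lengths and the newer edgeR method were chosen after seeing the data. Depth limits HBM, HBZ, HBQ1, HBD and, in the MLL1 experiment, HBB, which had 0 to 121 counts per library.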

Other observations

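Over the 10 libraries, after each experiment's mean was subtracted from log2 CPM, the 3 genes whose levels were most like those of HBA1 were DPP3, a dipeptidyl peptidase (Pearson r = 0.98), IP6K1, an inositol phosphate kinase (r = 0.97), and NPLOC4, a cofactor of the p97 segregase (r = 0.97). For HBG2 they were RBM22, a splicing factor (r = 0.98), ILF2, a double-stranded RNA binding factor (r = 0.98), and the beta cluster pseudogene HBBP1 (r = 0.98). These are descriptions over 10 points that share library depth, knockdown group and, in the AF9 experiment, the GC trend, and they carry no test.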
